A study of Equus caballus with 6 samples.

Results

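The small leucine-rich proteoglycans are 10 genes here: DCN, BGN and ASPN of class I, FMOD, LUM and PRELP of class II, EPYC and OGN of class III, CHAD of class IV and PODN of class V. They were found on the array by probes whose description names the gene by symbol or full name, and no measured value entered the choice. All 10 were found among the 13565 named genes on the array. They had 26 of the 43603 probes, and 25 of these probes, for 9 genes, were found by description. The description of the PRELP probe breaks off early, and that probe was found by the transcript it was designed from. Gene expression was measured on 6 single-colour horse arrays, 1 per region, after laser capture microdissection of the cells and amplification of their RNA by PCR. The 3 fetal regions were taken from hindlimbs at gestational day 40 and comprised the intermediate interzone, the outer interzone and transient embryonic cartilage. The interzone is the tissue between skeletal elements where the joint forms, and transient cartilage is the model that bone later replaces. The 3 adult regions were taken from stifle articular cartilage at 15 years, at depths of up to 10% (superficial), 20 to 30% (middle) and 50 to 90% (deep) of its thickness. No treatment or genotype was given in the labels. The sources used here do not give the number of animals. No region had a replicate, so every difference describes 2 arrays and carries no p-value. The fetal arrays lay on 1 slide and the adult arrays on another, so stage and slide cannot be told apart.

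Small leucine-rich proteoglycans are secreted proteins whose core is built of leucine-rich repeats and often carries glycosaminoglycan chains. Many of them bind collagen and set the diameter and spacing of its fibrils, and several bind growth factors of the TGF-beta and BMP families. Decorin and biglycan carry chondroitin or dermatan sulfate chains, and fibromodulin and lumican carry keratan sulfate. Cartilage, tendon and cornea are rich in these proteins, and many of their genes lie in short chromosomal clusters.

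Each level below is a signal scaled within its array so that 1000 is the 75th percentile of 1770 probes, those that passed the background flag on every array. A probe is called above background by the flag of the scanner software. Where it is not, its level is only a bound, and the lowest signal above background on that array is used as a floor. The floors were 3.78 for the intermediate and 2.04 for the outer interzone, 1.96 for transient cartilage, 3.22 for superficial, 15.3 for middle and 8.53 for deep adult cartilage. Of all probes, 37.1% to 44.7% were above background on the fetal arrays, 26.5% in superficial, 8.40% in middle and 10.9% in deep adult cartilage. The middle and deep arrays therefore measured fewer genes and had higher floors.

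The probes are 60 bases long, and the results depend on where in a transcript they lie. The lines below give, in 5′ to 3′ order and as the scanner files list them, probes of members with large differences. The first 4 lines are single probes, with no capitals. The ASPN, OGN and CHAD lines are the probes whose levels are reported. The DCN line is the second DCN probe, while the reported DCN levels come from the probe at 1268, which is not shown.
DCN start 526: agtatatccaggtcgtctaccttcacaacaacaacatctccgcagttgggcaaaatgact
ASPN: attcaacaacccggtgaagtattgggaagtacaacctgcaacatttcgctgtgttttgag
OGN: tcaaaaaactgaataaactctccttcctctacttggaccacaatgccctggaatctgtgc
CHAD: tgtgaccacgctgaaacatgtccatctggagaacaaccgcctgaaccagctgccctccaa
The EPYC probes overlap, and capitals mark the 20 bases that they share.
EPYC start 843: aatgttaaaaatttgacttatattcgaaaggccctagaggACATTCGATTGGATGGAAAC
EPYC start 883: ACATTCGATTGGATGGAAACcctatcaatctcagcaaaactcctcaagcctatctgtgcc
FMOD and LUM each have 5 probes that are shifted by 1 base from one to the next. Capitals mark the 56 bases common to all 5, and the lines show the outermost probes of each run. The reported FMOD probe is the one at 394. The reported LUM levels come from a further probe, at 1506, which is not shown.
FMOD start 390: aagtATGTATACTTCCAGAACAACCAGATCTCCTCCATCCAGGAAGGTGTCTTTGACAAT
FMOD start 394: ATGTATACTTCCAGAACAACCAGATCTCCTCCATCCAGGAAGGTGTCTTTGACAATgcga
LUM start 610: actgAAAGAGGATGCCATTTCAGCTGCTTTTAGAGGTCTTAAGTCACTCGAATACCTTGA
LUM start 614: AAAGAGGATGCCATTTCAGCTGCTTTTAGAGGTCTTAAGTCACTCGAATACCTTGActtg
Such overlapping probes read nearly the same stretch, so their agreement shows how precisely 1 site was read and nothing about other sites.

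BGN has 3 probes. The reported one was designed from a partial coding sequence and is shown first. The other 2 were designed from 2 other records of the transcript and are identical at 57 of 60 bases. Their last 28 bases are shown with the differing bases in capitals. Counted from 1 at the 5′ end of the probe, the differences from the first record to the other are T45A, A48C and T58C.
BGN reported: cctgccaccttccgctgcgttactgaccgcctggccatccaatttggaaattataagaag
BGN start 2213: ttgtctttcaatTaaAgaaacactgTgc
BGN start 2101: ttgtctttcaatAaaCgaaacactgCgc
Start positions are counted along the record each probe was designed from. The records differ for the BGN and DCN probes, so the files do not order those sites along a transcript. The BGN probe at 2213 shares a run of 15 bases with 5 probes of other genes, the PODN probe likewise with 5, and the DCN probe at 1268 with 1. The other 23 members' probes share none.

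On each array the share of members above background was larger than that of all genes. The intermediate interzone had 8 of 10 above background, against 38.0% of all genes. The outer interzone had 9, against 43.6%, and transient cartilage 8, against 45.8%. In superficial adult cartilage 6 were above background, against 28.8% of all genes. The middle layer had 2, BGN and CHAD, against 9.76%, and the deep layer 5, against 12.3%. Only BGN was above background on all 6 arrays, as were 594 of the 13565 genes (4.38%).

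**Figure D1:**
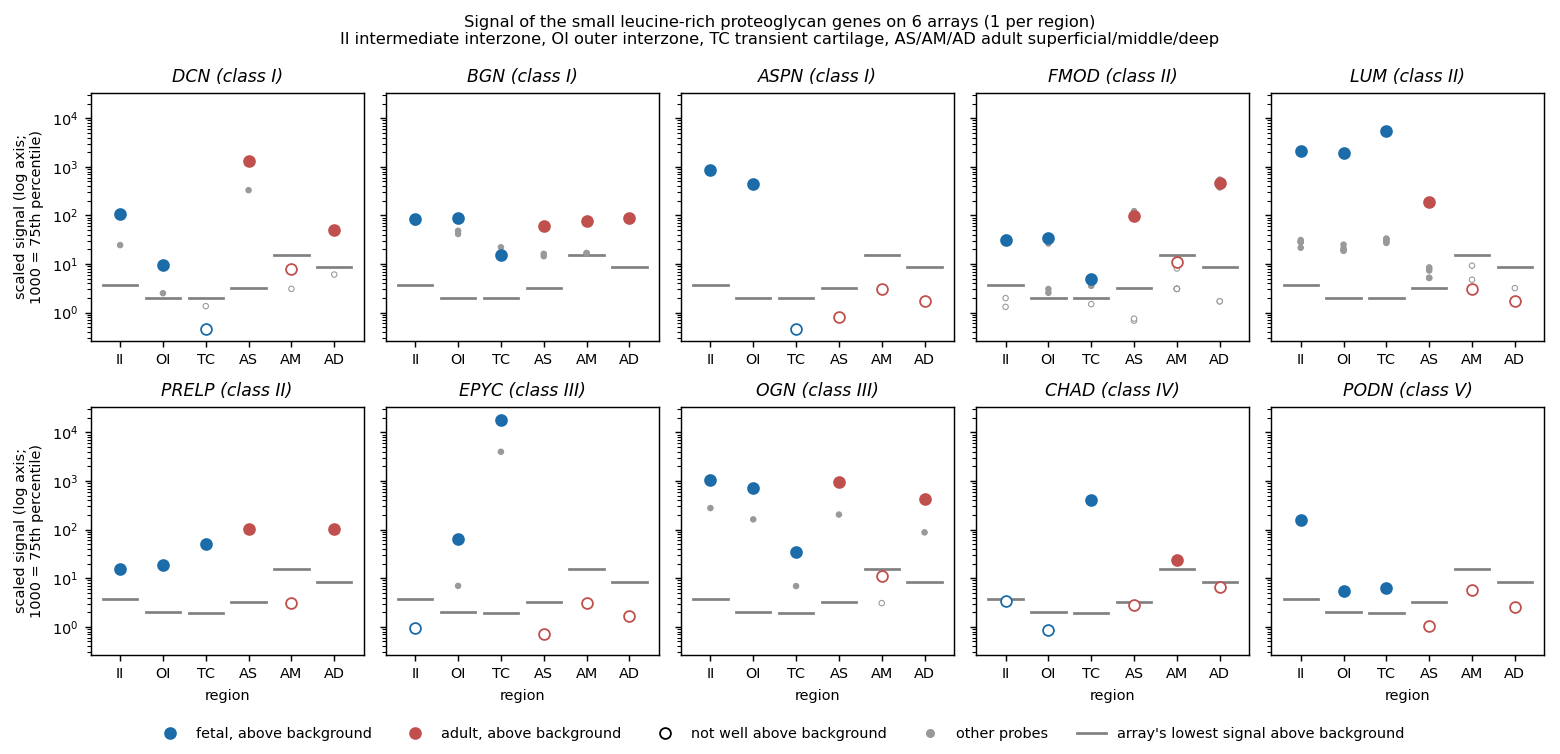
Scaled signal (log axis, 1000 is the 75th percentile of the common probes) of each gene on the 6 arrays. Large filled points are the reported probe where it is above background, open points where it is not, small grey points the other probes, and grey bars the floor of each array. Spot errors of points above background are smaller than the points. EPYC spans the widest range, from not above background to 17786, and BGN the narrowest.

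Class I differed from gene to gene. Decorin (DCN) binds collagen I fibrils and TGF-beta. Its level was 108 in the intermediate and 9.59 in the outer interzone, 1348 in superficial and 49.5 in deep adult cartilage. Transient cartilage (0.452) and the middle layer (7.86) did not pass the background flag. The superficial layer stood highest, then the intermediate interzone and the deep layer, which were 2.18-fold apart, and then the outer interzone. The probe at the other site read 24.5, 2.51 and 331 in the intermediate interzone, outer interzone and superficial layer. On the other arrays, the deep layer included, that probe did not pass. Both sites thus put the same 3 arrays in the same order.

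Biglycan (BGN), the closest relative of decorin, was the most even of the members by its reported probe and the main scaling. The reported probe read 85.1 in the intermediate and 89.1 in the outer interzone, 15.1 in transient cartilage, 60.2 in superficial, 75.2 in middle and 86.9 in deep adult cartilage. Transient cartilage was the only low array, and the other 5 lay within 1.48-fold of each other. In the order of level, the outer interzone, deep layer, intermediate interzone and middle layer did not differ from their neighbours beyond the spot error. The probe pair at the other site gave another adult order. These probes read 70.8 and 87.9 for the intermediate and 41.5 and 48.3 for the outer interzone, 15.5 and 22.1 in transient cartilage. They then read 14.5 and 16.2 in superficial, 16.7 and 16.9 in middle, and 76.2 and 83.9 in deep adult cartilage. By this pair the superficial and middle layers were as low as transient cartilage and the deep layer was as high as the intermediate interzone.

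Asporin (ASPN), which binds collagen and TGF-beta and lacks glycosaminoglycan chains, was measured in the interzone only. It read 855 in the intermediate and 449 in the outer interzone. Transient cartilage (0.454) and the superficial (0.824), middle (3.08) and deep (1.71) layers were at background. Only 1 probe reads ASPN.

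In class II, fibromodulin (FMOD), which binds collagen fibrils during their assembly, was highest in deep adult cartilage. The reported probe read 31.4 in the intermediate and 34.4 in the outer interzone, 4.80 in transient cartilage, 99.6 in the superficial layer and 466 in the deep layer. The middle layer (10.9) lay under its floor of 15.3. The 2 interzone arrays did not differ beyond the spot error, and transient cartilage was lowest among the measured arrays. All 5 overlapping probes put transient cartilage lowest and the deep layer highest among the measured arrays. The 2 probes near the end of the record, at 2762 and 2800, were above background in the outer interzone only (2.55 and 3.05), apart from 1 of them in transient cartilage (4.08), and so gave no adult order.

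Lumican (LUM), a keratan sulfate proteoglycan known from cornea, was high in the fetal regions. The reported probe, at 1506, had 5 spots and read 2134 in the intermediate and 1955 in the outer interzone, 5552 in transient cartilage and 185 in the superficial layer. The middle (3.08) and deep (1.71) layers were at background. The 5 probes at 610 to 614 read 21.6 to 31.1, 18.7 to 25.1, 27.1 to 33.4 and 5.16 to 8.52 on the same 4 arrays and were not above background on the other 2. Both sites put the superficial layer below all 3 fetal regions. They differ in the place of transient cartilage, which stands clear of the interzone at 1506 and overlaps the intermediate interzone at 610 to 614.

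PRELP, a proteoglycan with an arginine- and proline-rich end that binds heparan sulfate, was higher in superficial and deep adult cartilage than in the fetal regions. It read 15.9 in the intermediate and 18.5 in the outer interzone, 51.7 in transient cartilage, 105 in the superficial layer and 101 in the deep layer, and was not above background in the middle layer (3.08). The superficial and deep layers did not differ beyond the spot error, and the interzone arrays differed by 0.22 with a spot error of 0.22 on the log2 scale.

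Class III held the widest difference. Epiphycan (EPYC) is a proteoglycan of growth plate cartilage. It read 17786 in transient cartilage and 64.2 in the outer interzone. The intermediate interzone (0.924) and superficial (0.695), middle (3.08) and deep (1.71) adult cartilage were at background. The other EPYC probe, which shares 20 bases with it, was above background on the same 2 arrays.

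Osteoglycin (OGN, also called mimecan) is a keratan sulfate proteoglycan that takes part in collagen fibril assembly. It read 1059 in the intermediate and 722 in the outer interzone, 35.5 in transient cartilage, 961 in superficial and 424 in deep adult cartilage. The middle layer (11.0) was at background. The second probe read 278, 163, 6.89, 205 and 87.9 on the same 5 arrays. By the reported probe the intermediate interzone and the superficial layer did not differ beyond the spot error. The second probe read 278 and 205 there. Transient cartilage was lowest among the measured arrays with both probes.

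Chondroadherin (CHAD, class IV) is a cartilage protein that binds collagen II and integrins on chondrocytes. Its 1 probe read 399 in transient cartilage and 23.6 in the middle layer, the latter near the floor of 15.3. Its level was at background in the intermediate (3.35) and outer (0.843) interzone and in the superficial (2.76) and deep (6.72) layers. Podocan (PODN, class V) is named after the kidney podocytes in which it was described. It read 155 in the intermediate interzone, against 5.35 in the outer one and 6.40 in transient cartilage, and was not above background in superficial (1.06), middle (5.83) or deep (2.59) adult cartilage. The outer interzone and transient cartilage differed by 0.26 on the log2 scale, with a spot error of 0.26.

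The interzone was then compared with transient cartilage, the question being how tissue of the future joint differs from cartilage of the future bone. A gene was counted as higher or lower where 2 arrays were at least 4-fold apart, either measured on both or by a bound against the floor. In the intermediate interzone 6 of 10 members were higher and 2 were lower. Over the 6935 genes compared, 17.8% were higher and 14.6% lower. Members measured on both arrays numbered 6, with a median log2 difference of 2.60, against 0.35 over all genes. DCN, ASPN, EPYC and CHAD, known by bounds only, do not enter that median. The bound for ASPN was a level at least 436-fold above transient cartilage, and for DCN a log2 difference of at least 5.78. Measured folds were OGN 29.9-fold, PODN 24.3-fold, FMOD 6.54-fold and BGN 5.64-fold. For EPYC and CHAD the intermediate interzone lay at least 4706-fold and 106-fold below transient cartilage. LUM (log2 difference -1.38) and PRELP (-1.70) were below the 4-fold size. Where both arrays were above background, the spot error of these differences was 0.09 for LUM, whose probe had 5 spots, and 0.21 to 0.25 for the others. The spread between probes of 1 gene was larger, with a pooled SD of 0.56 on the log2 scale. With scaling on the 50th percentile the counts became 5 higher and 3 lower, since BGN fell short (log2 difference 1.96) and PRELP passed (-2.24). The BGN pair at the other site gave 3.98-fold and 4.57-fold. With the mean over a gene's probes FMOD fell short (1.87), with normexp background correction BGN (1.86) and FMOD (1.67) did, and with the wider filter DCN gave no value.

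In the outer interzone 5 of 10 members were higher than in transient cartilage and 2 lower, against 15.9% and 16.1% of 7223 genes. Here 7 members were measured on both arrays, EPYC included. Their median log2 difference was -0.26, against 0.09 over all genes, unlike that of the intermediate interzone. The higher members were ASPN (at least 229-fold), OGN (20.4-fold), FMOD (7.17-fold), BGN (5.91-fold) and DCN (at least 4.89-fold). EPYC was 277-fold lower and CHAD at least 196-fold lower. LUM (-1.51), PRELP (-1.48) and PODN (-0.26) were less than 4-fold apart. Both comparisons use the same transient cartilage array, so their likeness is not independent support for either. DCN in the outer interzone lay close to the floor and missed the 4-fold size with quantile normalization (log2 difference 1.37), the narrower filter (1.28), the mean over probes (1.32) and normexp (0.20), and gave no value with the wider filter. BGN missed it with the mean over probes (1.70) and with normexp, and its probe pair at the other site gave 2.19-fold and 2.68-fold, so that the BGN call rests on the reported site. FMOD missed it with normexp (0.99). The 1 FMOD probe near the end of the record that was measured on both arrays went the other way, at -0.68.

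Between the 2 layers of the interzone, PODN and DCN were higher in the intermediate layer and EPYC was lower. Of 9 members compared, 2 were higher, 1 was lower and 6 were neither, against 16.0% higher and 14.4% lower over 6680 genes, so the shares were near those of all genes. PODN was 29.0-fold and DCN 11.3-fold higher in the intermediate layer, and EPYC was at least 17.0-fold lower. The second DCN probe gave 9.78-fold. With normexp EPYC lost this call (log2 difference -0.58). ASPN (0.93), OGN (0.55), LUM (0.13), BGN (-0.07), FMOD (-0.13) and PRELP (-0.22) were all less than 4-fold apart. For the last 4 of these, by the reported probes, the layers lay within about 0.2, close to the spot error. Probes at the other site put the intermediate layer higher for BGN (0.77 and 0.86) and for LUM (0.21 to 0.57 over 5 probes), still less than 4-fold. The 5 overlapping FMOD probes gave -0.18 to 0.12, and PRELP has 1 probe. CHAD was not above background on either array.

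**Figure D2:**
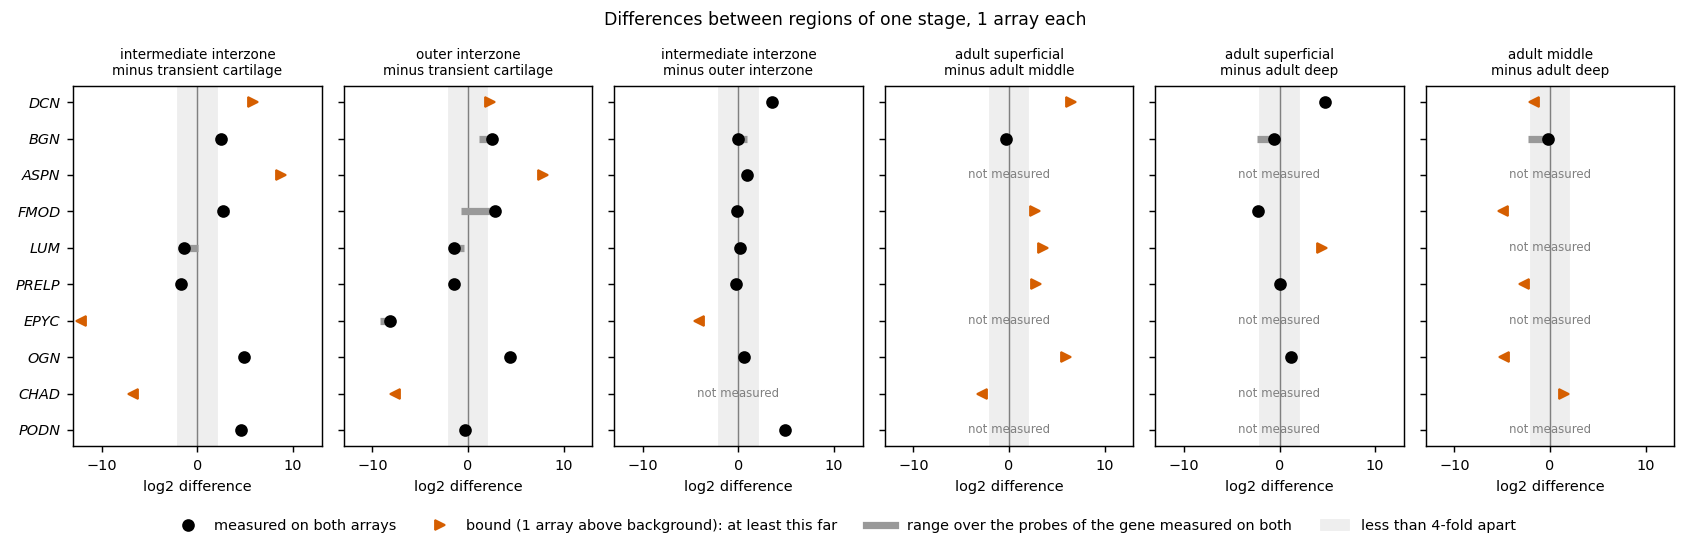
Log2 difference of each gene (rows) between 2 arrays of 1 stage, for the 6 comparisons (panels). Black points were measured on both arrays, orange triangles are bounds that point away from 0, grey bars give the range over probes of the gene measured on both arrays, and the shaded band is less than 4-fold. EPYC and CHAD lie on the left and ASPN, DCN and OGN on the right in both interzone panels, which share the transient cartilage array.

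Among the adult layers, 5 members were above background at the surface and not at middle depth. Of 7 members compared, 5 were higher and 1 was lower, while over 4137 genes 33.7% were higher and 15.9% lower. All 5 were bounds: DCN at least 87.8-fold, OGN at least 62.6-fold, LUM at least 12.1-fold, PRELP at least 6.87-fold and FMOD at least 6.49-fold. Such genes could be called in this direction only, because they were not above background in the middle layer. The count therefore cannot be told apart from the lower share of probes above background there (8.40%, against 26.5%). CHAD was at least 7.33-fold lower, by 1 probe whose middle-layer level of 23.6 lay near the floor of 15.3. That call ended with the authors' values, centring and the narrower filter. BGN was the only member measured on both arrays (log2 difference -0.32). Genes measured on both arrays had a median log2 difference of -1.50 here, so the scaling matters. With the authors' values, which move that median to 0.43, BGN turned to 1.61, CHAD fell short (-0.94) and the counts were 5 higher and 0 lower. With quantile normalization they were 2 and 2. The calls for FMOD, LUM and PRELP each ended under 3 or more of the alternatives, and those for DCN and OGN under none.

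Between the superficial and deep layers, 2 of 6 members were higher and 1 was lower, against 36.9% and 12.2% of 4235 genes. DCN was 27.2-fold and LUM at least 21.7-fold higher in the superficial layer, and FMOD was 4.68-fold lower. OGN (log2 difference 1.18), PRELP (0.06) and BGN (-0.53) were neither. With the authors' values the counts were 3 higher, OGN included (2.26), and 0 lower, since FMOD reached -1.15. With quantile normalization they were 1 higher and 2 lower. The BGN pair at the other site put the superficial layer 5.23-fold below the deep layer, unlike the reported probe. The LUM call rests on its probe at 1506, and LUM fell to 0.45 with the mean over probes, 0.99 with quantile normalization and 1.80 with normexp. FMOD also fell short with the mean over probes (-1.87).

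Between the middle and deep layers, 0 of 6 members were higher in the middle layer and 3 were lower, against 15.5% and 22.8% of 2095 genes. The middle layer lay at least 30.4-fold below the deep layer for FMOD, at least 27.6-fold for OGN and at least 6.61-fold for PRELP. DCN was at least 3.23-fold lower and CHAD at least 2.77-fold higher, and neither reached 4-fold. DCN did pass as lower with the 75th percentile of all probes (log2 difference -2.36), the authors' values (-2.54), centring (-2.48) and the wider filter (-2.66), and came to -0.18 with the mean over probes and -0.05 with normexp. The BGN pair was 4.77-fold lower in the middle layer, and the reported BGN probe differed by -0.21. PRELP fell short with quantile normalization (log2 difference -1.27), the narrower filter (-1.72) and normexp (-0.60). ASPN, EPYC, LUM and PODN were above background in neither layer.

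**Figure D3:**
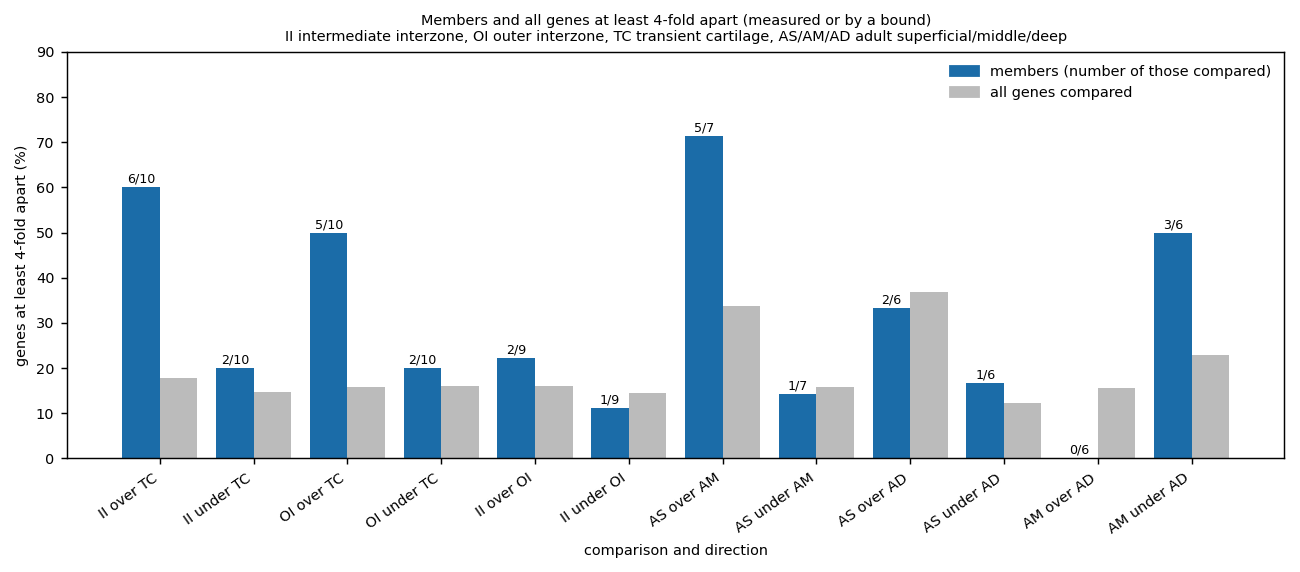
Percent of genes at least 4-fold apart, by comparison and direction, for the members compared (blue, with the number called of those compared) and for all genes compared (grey). Bars start at 0. The members stand above all genes for the intermediate interzone (6 of 10) and the outer interzone (5 of 10) over transient cartilage. The bar for the superficial over the middle layer (5 of 7) also stands above, and all 5 are bounds against a middle layer at background. Members lie close to all genes for the superficial over the deep layer (2 of 6, against 36.9%).

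For stage, a gene was counted where every array of 1 stage was above background and above every array of the other. LUM alone met this, with its lowest fetal level 10.6-fold above its highest adult level. That is 1 of 6 members compared, against 32.9% of 4012 genes, so the share is below that of all genes. No member was higher on all adult arrays, against 5.88% of genes. Only BGN was above background on all 3 adult arrays, so no other member could have met this. PODN could not have been counted as higher in the fetus, since its lowest fetal level (5.35) lay under the middle-layer floor of 15.3. DCN, ASPN, EPYC and CHAD could not be compared, because each was below background on arrays of both stages. Without the middle layer, FMOD and PRELP were higher on the other adult arrays than on all fetal ones. Without the intermediate interzone EPYC was added as higher in the fetus, and without transient cartilage ASPN.

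Several members are neighbours in the horse gene table, with no protein-coding gene between them, and 4 further genes of the family fill the clusters. The order is EPYC, KERA, LUM and DCN in one cluster, then ECM2, ASPN, OMD and OGN in another, and then FMOD, PRELP and OPTC. FMOD and PRELP were above background on the same 5 arrays, and the other neighbours differed in where they were measured. In the first cluster, EPYC was above background in transient cartilage and the outer interzone, KERA (keratocan) on no array, LUM in all fetal regions and the superficial layer, and DCN in the interzone and the superficial and deep layers. In the cluster of ASPN, ECM2 read 21.0 and 26.0 in the intermediate and outer interzone and 129 in the superficial layer. OMD (osteomodulin) was above background in superficial (1355) and deep (3165) cartilage only, while ASPN was measured in the interzone only. Neither was above background in transient cartilage or the middle layer. OPTC (opticin) was above background in transient cartilage alone (31.1). Against the middle layer OMD was higher by at least 88.4-fold at the surface and at least 206-fold in the deep layer.

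**Figure D4:**
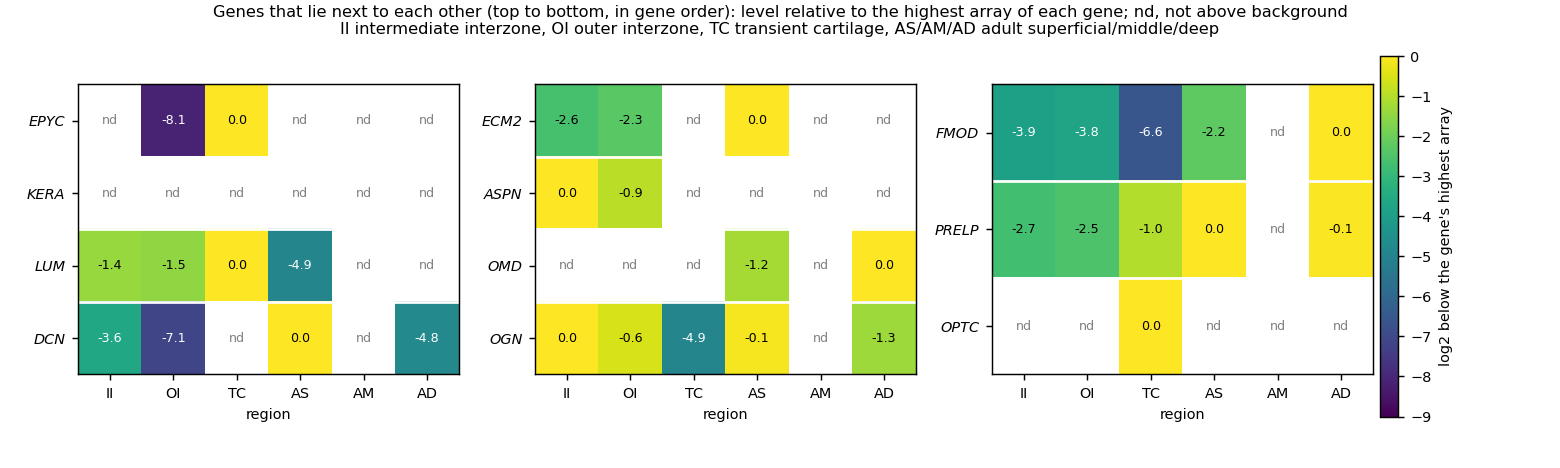
Level of genes that lie next to each other, in gene order from top to bottom, on the 6 arrays. Each cell gives the log2 distance below the gene's own highest array, and nd means not above background. OMD is measured on 2 adult arrays and ASPN on the interzone arrays only. EPYC and LUM both peak in transient cartilage, and DCN peaks in the superficial layer.

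Across the remaining family genes, TSKU and CHADL were above background on all 6 arrays and PODNL1 on all but the intermediate interzone. Of the 8 other family genes listed, 7 had a probe. Of 5 compared between the intermediate interzone and transient cartilage, ECM2 was higher by at least 3.42 (log2) and OPTC at least 8.22-fold lower. CHADL was 4.32-fold lower in the outer interzone than in transient cartilage.

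Within a class, correlations across the 6 arrays ran from -0.62 to 0.61. They use the log2 levels with values below the floor set to the floor, and the points share 2 slides and 1 scaling. Pearson's r was 0.49 for DCN with BGN, 0.61 for BGN with ASPN and 0.00 for DCN with ASPN. In class II it was 0.54 for FMOD with PRELP, -0.62 for FMOD with LUM and -0.28 for LUM with PRELP. In class III it was -0.55 for EPYC with OGN. The highest value over all pairs was 0.83, for EPYC with CHAD, which were above background together on 1 array only. The lowest was -0.88, for BGN with EPYC.

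For each member measured on at least 3 arrays, the gene of most similar level was sought among genes above background on exactly the same arrays and at least 4-fold apart between arrays. OGN was most like COL6A3, a chain of collagen VI (r = 0.92, 317 candidates, 6 arrays). FMOD was most like FOS (0.98, 317 candidates), PRELP most like UGP2 (0.92) and BGN most like PYGO2 (0.93) and MKX (0.84), of 417 candidates. LUM was most like DECR1 and CRTAP (both 1.00, 1089 candidates), PODN most like FANCG (0.99, 1283 candidates) and DCN most like ACY1 (0.90, only 9 candidates). Arrays at the floor enter these values, except for BGN. A member and its candidates are at background on the same arrays, which by itself favours a high r. The genes named are also the best of their candidates, so a high r is no sign of shared regulation.

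**Figure D5:**
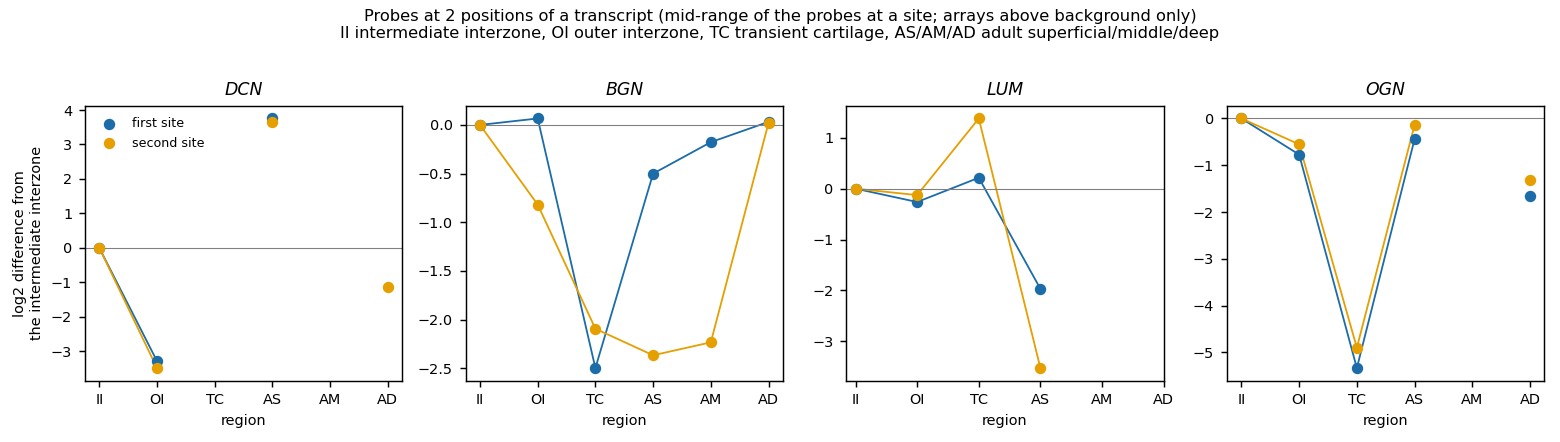
Log2 difference from the intermediate interzone at 2 probe sites (blue and orange) of DCN, BGN, LUM and OGN, for arrays above background. The first and second site are in the order of the start positions that the files give. DCN and OGN sites run together, while for BGN the superficial and middle layers lie near the intermediate interzone at the first site and below -2 at the second.

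The collagens that these proteins bind are given from a list of 16 genes, all on the array. Counts of this and each later list are to be read beside the shares of all genes higher and lower. They were 17.8% and 14.6% for the intermediate and 15.9% and 16.1% for the outer interzone over transient cartilage. Between the interzone layers they were 16.0% and 14.4%. For the superficial layer they were 33.7% and 15.9% over the middle and 36.9% and 12.2% over the deep layer. For the middle over the deep layer they were 15.5% and 22.8%. Between the intermediate interzone and transient cartilage, 5 of 14 compared were higher and 6 lower. COL6A3 was 27.7-fold higher, COL2A1, the main cartilage collagen, 22.0-fold lower, COL11A1 16.8-fold lower and COL9A3 13.8-fold lower. In the outer interzone 2 of 14 were higher and 6 lower, and between the interzone layers 1 of 15 was higher and 1 lower. COL1A1, the main fibril collagen of bone and tendon, read 10675 in the intermediate interzone, 7904 in the outer one and 4754 in transient cartilage, so that all fetal arrays carried it. Between the superficial and middle layers 3 of 7 were higher and 0 lower, with COL11A1 32.9-fold, COL3A1 at least 119-fold and COL6A3 at least 98.0-fold. Against the deep layer, 2 of 3 were lower in the middle layer, COL6A3 by at least 24.6-fold.

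The enzymes of chondroitin and dermatan sulfate synthesis, which build chains carried by decorin and biglycan, were on the array for 22 of 30 listed genes. In the intermediate interzone 1 of 13 compared was higher than in transient cartilage and 4 lower. CHST12, a chondroitin sulfotransferase, was 4.81-fold higher. CSGALNACT1, which starts chondroitin chains, was at least 142-fold lower, FAM20B, a kinase acting on the linkage of the chain, at least 56.1-fold and UGDH, which makes UDP-glucuronate, at least 48.1-fold. In the outer interzone 0 of 12 were higher and 5 lower, with FAM20B 12.3-fold and CHST12 5.56-fold lower. DSE, the epimerase that makes dermatan sulfate, stood at least 25.5-fold higher in the intermediate than in the outer interzone. At the surface it stood at least 18.1-fold above the middle layer and at least 32.6-fold above the deep layer. CSGALNACT1 and UGDH were likewise higher in the superficial layer than in the deep one, at least 43.7-fold and 23.0-fold. In all, 5 of 10 were higher and 1 lower in that comparison, beside 36.9% and 12.2% of all genes. Against the middle layer 4 of 9 were higher and 1 lower, beside 33.7% and 15.9% of all genes. Between the interzone layers 3 of 9 were higher and 3 lower, and 1 of 2 was higher in the middle than in the deep layer.

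Enzymes of keratan sulfate synthesis, for the chains of fibromodulin and lumican, were on the array for 10 of 12 listed genes. Between the intermediate interzone and transient cartilage 0 of 8 were higher and 2 lower. B3GNT7, which extends keratan sulfate, lay below transient cartilage by at least 9.14-fold in the intermediate and 16.9-fold in the outer interzone, where 1 of 8 was higher and 1 lower. Between the interzone layers 1 of 7 was higher and 2 lower. In the adult only 3 genes could be compared in each pair of layers. The sulfotransferase CHST6 was 4.67-fold lower at the surface than at middle depth, where 0 were higher and 2 lower. In the superficial against the deep layer 0 were higher or lower, and in the middle against the deep layer 1 was higher and 0 lower.

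Markers of cell types were read beside these results. Of 9 chondrocyte markers, the intermediate interzone had 7 above background, the outer interzone 8 and transient cartilage 9, with summed levels of 2825, 5398 and 63476. All 9 were lower in the intermediate interzone than in transient cartilage, so markers of chondrocytes moved with EPYC and CHAD. Their part in the members' differences was not tested, and in tissue of this kind fewer cells of a type and less RNA per cell cannot be told apart. Of 8 interzone markers 7, 7 and 5 were above background, with sums of 26568, 17390 and 1053, GDF5 being at background in transient cartilage. Of 9 markers of tendon, ligament and perichondrium 5, 6 and 6 were above background, with sums of 65097, 46682 and 30832. Most of each sum came from COL1A1, COL1A2 and COL3A1. MKX and THBS4 were above background on all fetal arrays, TNMD and KERA on none. SCX was so in the outer interzone only (5.58), and TNC in transient cartilage only (4.43). Endothelial markers were not above background on any fetal array (0 of 6). Epithelial markers were above background for 3 of 6 in the outer interzone (sum 258), 1 in the intermediate interzone (11.0) and 0 in transient cartilage. Of the others, 1 to 2 of 4 blood markers (sums 17.7 to 196), 1 to 2 of 5 bone markers (3.87 to 12.9), 3 of 5 macrophage markers (61.7 to 136) and 3 to 4 of 8 muscle markers (400.2 to 592) were above background in the fetal regions.

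In adult cartilage the chondrocyte markers were above background for 5 of 9 in the superficial, 4 in the middle and 5 in the deep layer, with sums of 10730, 5253 and 114455. A sum adds levels of different probes and can rest on 1 gene. COMP alone read 6523, 3626 and 105545, while SOX9 was highest in the middle layer (1380) and HAPLN1 in the superficial layer (1285). ACAN, COMP, SOX9 and COL11A1 were among them in every layer, while COL2A1, COL9A1, MATN1 and MATN3 were above background in none. The label of articular cartilage is thus borne by some of its defining markers and not by COL2A1. Of 9 markers of tendon, ligament and perichondrium, 5 were above background in the superficial layer (sum 2249) and 1 in each of the middle (161) and deep (152) layers. Of 8 interzone markers 3, 2 and 1 were, with sums of 34210, 17783 and 1073. CD44 made up 17680 of the sum in the middle layer, where PRG4, the lubricin gene, read 103, against 32461 in the superficial and 1073 in the deep layer. Bone markers were above background for 4, 2 and 0 of 5, with sums of 1174, 692 and 0, macrophage markers for 3, 2 and 2 of 5 (21.0, 220.1 and 23.1), and endothelial markers for 1 of 6 in each layer (10.0, 81.1 and 38.6). Epithelial markers were above background for 1, 1 and 0 of 6, muscle markers for 2 of 8 in each layer and blood markers for 0, 0 and 1 of 4. Their part in the members' differences between layers was not tested.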

How the data were processed

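Cells of each region were collected by laser capture microdissection, and their RNA was amplified with SuperAmp, labelled with Cy3 and hybridised to Agilent horse arrays, per the labels' protocols. The authors deposited the scanner output, an intensity per spot that is not log-transformed. By the file headers, the software was Agilent Feature Extraction, version 10.7.3.1, which the submitters' processing notes name too. Its processed signal is background-subtracted. The authors also deposited a series table, which proved to be a ratio of that signal to each array's median; it served as an alternative. Each file held 45220 spots, and 1417 control spots per array were removed. The software flagged 3 to 80 other spots per array as outliers. A flagged spot was left out unless all spots of its probe were flagged. No spot was saturated. Spots of a probe were averaged.

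Values are log2 processed signal minus the array's 75th percentile over 1770 probes well above background on all 6 arrays. Probes were named from their descriptions and from a horse gene table (RefSeq, used for names and gene order only): 23434 of 43603 had a name. The reported probe of a gene was the one of highest mean. A gene was above background if any of its probes was. A bound sets the bright array against the higher of the floor and the dim probe's own signal. The number of arrays limits the precision, and no test was possible with 1 array a group. Errors are those of the scanner software for spots and the spread between probes. They leave out animals, dissections and amplifications. Fold counts used 4-fold.

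All 10 members are named with every probe. From each other list the rule names up to 4 genes with the largest measured difference. Genes of those lists named by a bound or for their level, and family neighbours of the members, fall outside it and were chosen after their values were seen. The members and lists were chosen with earlier results of these data known. The calculation was tested on simulated data. Python 3.11.15, pandas 2.3.3 and, for normexp, R 4.3.3 with limma 3.58.1 were used. Alternatives were the percentile, quantile normalization, centring, the authors' values, normexp with an offset of 50, the mean over probes, wider and narrower filters, a 2-fold threshold, leaving out 1 array for stage and, chosen after seeing the data, the other transcript site.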

Additional observations from a re-analysis of the deposited data

How the results depend on the processing

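The fits changed 1 choice at a time. Of the 30 calls of a member in a comparison, 30 were kept with the 75th percentile of all probes, 29 with the 50th percentile, 28 with the authors' values, 28 with centring on the median difference, 26 with the wider filter, 25 with the narrower filter, 24 with quantile normalization, 23 with the mean over probes and 18 with normexp. Calls were also gained at 4-fold: DCN lower in the middle than in the deep layer under 4 alternatives, PRELP lower in the intermediate interzone than in transient cartilage and OGN higher in the superficial than in the deep layer under 2 each, BGN lower in the superficial than in both other layers with quantile normalization, and PODN lower at the surface than at middle depth with the wider filter. Counts that moved by over 1.5 times follow. With a 2-fold threshold 4 members were lower in the intermediate interzone than in transient cartilage, 4 in the outer interzone, and 1 was higher in the middle than in the deep layer. With normexp 2 were higher in the outer interzone than in transient cartilage, 0 were lower in the intermediate than in the outer interzone, 2 were higher at the surface than at middle depth, and 1 was higher and 0 lower than in the deep layer. With the mean over probes 3 were higher in the outer interzone than in transient cartilage, 3 at the surface than at middle depth, and 1 was higher and 0 lower in the superficial than in the deep layer. For the superficial against the middle layer, quantile normalization gave 2 higher and 2 lower, the authors' values 0 lower, centring 0 lower, the wider filter 2 lower and the narrower filter 3 higher and 0 lower. For the superficial against the deep layer, quantile normalization gave 1 higher and 2 lower, the wider filter 1 higher, and the authors' values and centring 0 lower. For stage, 2 members were higher in the fetus with the authors' values and 1 higher in the adult with the 75th percentile of all probes. Leaving out 1 array at a time gave 1 to 2 higher in the fetus and 0 to 2 higher in the adult. At the other transcript site FMOD turned to -0.68 (log2) in the outer interzone against transient cartilage. The cause of these changes was not tested. No paired analysis was possible because each region had 1 array.

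The scaling moved the median log2 difference of all measured genes by up to 1.93 between adult layers (superficial against middle, authors' values) and by up to 0.53 between fetal regions (50th percentile). Signal over background limits the middle and deep layers most, since floors of 15.3 and 8.53 lie above levels measured on the fetal arrays.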

Other observations

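Growth factors and receptors that bind small leucine-rich proteoglycans were listed as 17 genes, of which 16 were on the array. TGFB2 read 728 in the intermediate and 1043 in the outer interzone, 51.2 in transient cartilage, 330 in the superficial and 3860 in the middle layer, and was not above background in the deep layer. It was 14.2-fold higher in the intermediate and 20.4-fold higher in the outer interzone than in transient cartilage. For BMP4 the bounds were 169-fold and 44.2-fold. Between the intermediate interzone and transient cartilage 4 of 9 genes were higher and 1 lower, in the outer interzone 4 of 8 and 2, and between the interzone layers 4 of 9 and 1. Over all genes 17.8%, 15.9% and 16.0% were higher and 14.6%, 16.1% and 14.4% lower. The innate immune receptor TLR4, which binds biglycan and decorin, was above background in the intermediate interzone (11.5) and the superficial layer (336) only. In the adult 3 of 9 were higher and 1 lower at the surface than at middle depth, 5 of 9 and 0 against the deep layer, and 1 of 4 and 0 in the middle against the deep layer. Over all genes 33.7%, 36.9% and 15.5% were higher and 15.9%, 12.2% and 22.8% lower. CTGF, a matricellular protein that binds decorin, read 16445 in superficial, 5400 in middle and 10187 in deep cartilage, against 6.54, 43.96 and not above background (1.20) in the intermediate interzone, outer interzone and transient cartilage.

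Proteinases known to cleave these proteins were listed as 14 genes, of which 12 were on the array. In the superficial layer MMP3 (stromelysin) read 2973 and MMP1 (a collagenase) 330, and in the middle layer 3587 and 1669. Neither was above background in the deep layer or in any fetal region. CTSK, a collagen-degrading cathepsin, read 1641 in the superficial layer and 36.4 in transient cartilage and was not above background elsewhere. Between the superficial and deep layers 5 of 8 were higher and 0 lower, beside 36.9% and 12.2% of all genes. MMP3 was at least 349-fold and CTSK at least 192-fold higher. Against the middle layer 2 of 9 were higher and 1 lower, beside 33.7% and 15.9% of all genes. In the middle against the deep layer 3 of 4 were higher, beside 15.5% of all genes. Of 6 compared between the intermediate interzone and transient cartilage 2 were higher and 1 lower, with MMP2 5.08-fold higher. In the outer interzone 0 of 5 were higher and 1 lower, and between the interzone layers 2 of 6 were higher and 0 lower.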
